A study of Arabidopsis thaliana with 16 samples.

Results

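Xyloglucan endotransglucosylase/hydrolase (XTH) genes were followed across 8 treatments of Arabidopsis thaliana roots. The genes were XTH16, XTH18, XTH20, XTH21, XTH32 and XTH33, and the array's probe annotation gave each of them 1 probe set among the 22746 tested. The annotation used here lists 10 of the 33 XTH genes of Arabidopsis. XTH19, XTH26, XTH29 and EXGT-A3, which is also called XTH27, are the other 4, and the remaining 23 are not analysed here.

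Xyloglucan is a hemicellulose that coats and links the cellulose microfibrils of the primary cell wall. XTH enzymes cut a xyloglucan chain and join the cut end to another chain, or to water, which is hydrolysis. They act in walls that are expanding and in walls that are being laid down, and several family members are known for their expression in growing roots. Auxin is a hormone that alters wall extensibility in roots and starts lateral root formation.

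The study measured transcripts on 16 single-channel arrays in the roots of 5-day-old seedlings, to find direct targets of LBD16, a transcription factor that acts in the founding of lateral roots. In every group the plants lacked functional LBD16, LBD18 and LBD33 (lbd16-1 lbd18-1 lbd33-1) and carried gLBD16:GR, LBD16 fused to the glucocorticoid receptor under its own regulatory region. Dexamethasone (DEX, 2 µM) lets such a fusion enter the nucleus, cycloheximide (CHX, 10 µM) inhibits protein synthesis, and NAA (1 µM) is a synthetic auxin. Treatments lasted 4 h and made 8 groups of 2 arrays each: NAA+DEX+CHX, NAA+CHX, DEX+CHX, CHX, NAA+DEX, NAA, DEX and mock, the last being 0.1% DMSO. LBD16 transcript, which on these arrays may come from the fusion or the mutant gene, averaged 5145 ± 102 in NAA roots and 474 ± 42.7 in mock roots (SD, n = 2 each), and 1142 ± 21.0 in NAA+CHX roots and 893 ± 3.25 in CHX roots. Roots without the fusion were not compared, so a response to DEX itself and one to LBD16 cannot be told apart. Whole roots were used, in which fewer cells of a type and less RNA per cell cannot be told apart either.

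Levels are the deposited linear intensities, which differ between probe sets for reasons other than transcript abundance, so levels are compared within a gene only. Changes are differences of group means of log2(intensity + 16) with the standard error (SE) of a limma model of all 16 arrays. A gene passed the test at a Benjamini-Hochberg adjusted p under 0.05 over all 22746 probe sets, and folds are on the same scale, which understates the change of dim genes. The XTH genes followed here were chosen with earlier results of these data known. Shares over all probe sets are therefore given as background and do not test whether the family responds more than other genes. Median intensity was 179 to 189 on the 8 arrays with CHX and 151 to 175 on the 8 without it. Of the root markers listed, 3 of 18 were measured (PYK10, EXPA7 and EXPA18). None was near 0, and their summed intensity lay at 14500 to 20700 over the groups with CHX and at 24900 to 33700 over those without it. Most of the sum was PYK10, at 13100 to 18800 with CHX and 22100 to 30600 without it. EXPA18 lay at 533 to 1020 with CHX and 1500 to 2830 without it. EXPA7 overlapped, at 598 to 1310 and 973 to 1380, and was not called in CHX vs mock (0.07). It was called as a fall in DEX+CHX vs DEX (-0.46), NAA+CHX vs NAA (-0.9) and NAA+DEX+CHX vs NAA+DEX (-0.88). Those comparisons called 50.6% to 52% of all probe sets. The 1 shoot marker measured of 13, RCA, lay at 279 to 491 with CHX and at 287 to 474 without it. Whether markers or medians have a part in the CHX results was not tested.

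**Figure D1:**
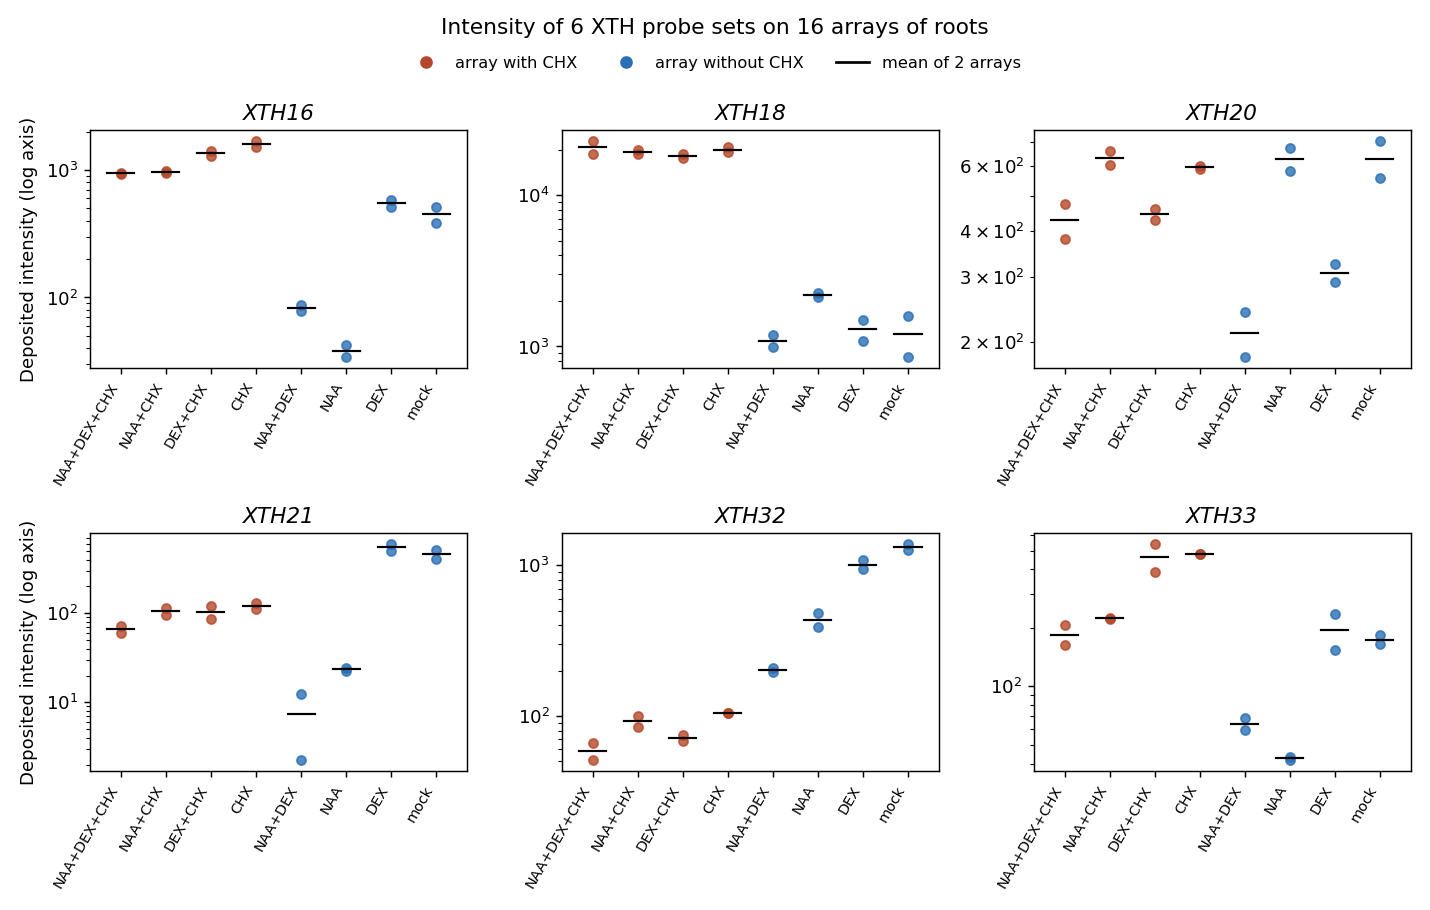
Deposited intensity on a log axis for each of 6 XTH probe sets, with a point for each array and a bar for the mean of the 2 arrays of a group. XTH18 lies between 17610.2 and 22687 on every array with CHX, XTH16 and XTH21 lie under 90 on the arrays with NAA and no CHX, and XTH20 is lower with DEX than without it in each state.

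XTH18 and XTH20 belong, with XTH17 and XTH19, to a group of closely related root-expressed XTH genes. XTH18 (AT4G30280, probe set 253628_at) measured 18559 and 22687 in NAA+DEX+CHX roots, 18659 and 19945 in NAA+CHX roots, 17610.2 and 18762 in DEX+CHX roots, and 19233 and 20717 in CHX roots. Without CHX it measured 994 and 1184 in NAA+DEX roots, 2108 and 2253 in NAA roots, 1088 and 1507 in DEX roots, and 855 and 1579 in mock roots. All 8 arrays with CHX thus lay far above all 8 without it, and the 4 CHX groups overlapped in their ranked neighbours. Among the groups without CHX, NAA alone stood apart from the others, and DEX, mock and NAA+DEX overlapped. The mock arrays had a mean of 1217 ± 512 (SD, n = 2), the widest relative spread of XTH18 in any group.

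XTH20 (AT5G48070, probe set 248732_at) varied least of the 6 genes, over a range of 1.52 on the log2 scale between group means. It measured 382 and 475 in NAA+DEX+CHX roots, 662 and 604 in NAA+CHX roots, 459.6 and 429.6 in DEX+CHX roots, and 602 and 589.9 in CHX roots. In the absence of CHX it measured 183 and 242 in NAA+DEX roots, 585 and 673 in NAA roots, 326 and 292 in DEX roots, and 702 and 558 in mock roots. The 4 groups without DEX (NAA+CHX, mock, NAA and CHX) ranked highest and overlapped in sequence, and the 4 groups with DEX were all lower, with NAA+DEX the lowest and clear of the next group. XTH18 and XTH20 correlated at 0.41 over the 8 group means, which is given as a description.

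XTH21 (AT2G18800, probe set 266066_at) is known for a role in primary root growth. Its intensity was 71.8 and 60.9 in NAA+DEX+CHX roots, 116 and 96.8 in NAA+CHX roots, 121 and 86.0 in DEX+CHX roots, and 110.5 and 130.3 in CHX roots. Roots without CHX gave 2.27 and 12.6 with NAA+DEX, 22.6 and 24.3 with NAA, 597 and 506 with DEX, and 403 and 512 in mock. DEX and mock roots, which overlapped, were highest, the CHX groups lay between, and both groups with NAA and no CHX were lowest. The deposited table holds no detection calls, so whether the lowest values are above background is not known.

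XTH16 (AT3G23730, probe set 257203_at) measured 949.6 and 931 in NAA+DEX+CHX roots, 939.9 and 979.7 in NAA+CHX roots, 1296 and 1409 in DEX+CHX roots, and 1525 and 1680.3 in CHX roots. With no CHX present it measured 78.6 and 87.4 in NAA+DEX roots, 34.2 and 42.0 in NAA roots, 513 and 585 in DEX roots, and 381 and 517 in mock roots. NAA+CHX overlapped NAA+DEX+CHX, and DEX overlapped mock. The other 5 steps of its ranking had no overlap, and NAA alone was the lowest group.

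XTH33 (AT1G10550, probe set 263207_at) encodes a family member known to associate with the plasma membrane. It measured 163 and 207 in NAA+DEX+CHX roots, 225 and 223 in NAA+CHX roots, 539.6 and 388 in DEX+CHX roots, and 480.5 and 479 in CHX roots. The groups without CHX gave 59.5 and 68.9 with NAA+DEX, 41.8 and 43.3 with NAA, 235 and 154 with DEX, and 164 and 183 in mock. Its groups ranked much as those of XTH16 did, with a correlation of 0.96 over the 8 group means, the highest of the 15 pairs of these genes. Across groups of arrays that share the large CHX and NAA effects, such a correlation is a description only.

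XTH32 (AT2G36870, probe set 263841_at) belongs with XTH31 to the branch of the family whose characterised enzymes favour hydrolysis. It measured 65.7 and 51.2 in NAA+DEX+CHX roots, 85.0 and 99.6 in NAA+CHX roots, 74.7 and 67.8 in DEX+CHX roots, and 105 and 104 in CHX roots. Without CHX the values were 208 and 196 with NAA+DEX, 389 and 482 with NAA, 1076 and 946 with DEX, and 1263 and 1379 in mock. Mock roots were highest and NAA+DEX+CHX roots lowest, and no 2 neighbouring groups in the ranking overlapped. Such full separation of 8 groups held for 0.114% of all probe sets. It is not a test, and some neighbours in the ranking were not called apart. NAA+CHX vs CHX gave -0.16 and NAA+DEX+CHX vs DEX+CHX -0.23 (SE 0.15 each, limma adjusted p = 0.75 and 0.58).

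DEX was compared with its control in 4 states, to ask which transcripts change when LBD16 is activated. In roots with NAA and no CHX, XTH20 and XTH32 fell and XTH16 rose, while XTH18, XTH21 and XTH33 did not pass. NAA+DEX vs NAA was thus called for 3 of 6 genes, 1 rise and 2 falls, where 2.93% of all probe sets were called, 1.22% as rises and 1.71% as falls. Of the 4 other XTH genes with a listed probe set it called 0. The median change was -0.89 over the 6 genes and -0.02 over all probe sets.

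XTH20 averaged 212 ± 42.0 in NAA+DEX roots and 629 ± 62.5 in NAA roots (SD, n = 2 each). It fell 2.84-fold (log2 change -1.51, SE 0.17, limma adjusted p = 0.00076), and both arrays with DEX lay below both without it. XTH32 averaged 202 ± 8.08 in NAA+DEX roots and 435 ± 65.8 in NAA roots, a change of -1.04 (2.06-fold, SE 0.15, limma adjusted p = 0.0033). Fitted on the 4 arrays compared alone, XTH20 and XTH32 did not pass (adjusted p = 0.084 and 0.12). XTH16 averaged 83.0 ± 6.23 in NAA+DEX roots and 38.1 ± 5.51 in NAA roots, a rise of 0.87 (1.83-fold, SE 0.16, limma adjusted p = 0.012). With a pseudocount of 64 the rise of XTH16 was 0.53 (adjusted p = 0.032), and it did not pass without NAA replicate 1, without NAA+DEX replicate 2, or on the 4 arrays alone (adjusted p = 0.13).

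The 3 genes that did not pass there had changes of -1.0 for XTH18 (SE 0.25, 95% interval -1.55 to -0.44, limma adjusted p = 0.064), -0.79 for XTH21 (SE 0.23) and 0.45 for XTH33 (SE 0.2). Their arrays did not overlap between the groups: XTH18 and XTH21 were lower, and XTH33 higher, in both NAA+DEX arrays. The share of all probe sets that separate so in a single comparison was not counted, so this does not set these genes apart. XTH18 passed in some other settings of the same comparison. Its adjusted p was 0.025 for a replicate block, 0.019 without dim probe sets (mean intensity over all arrays under 100) and 0.047 after quantile normalization. It did not pass with a pseudocount of 1 (adjusted p = 0.095), with median centring or on the arrays compared alone. With 1 array left out its change lay between -1.12 and -0.87. XTH21, whose intensities were under 25 in both groups, gave -1.88 with a pseudocount of 1 and -0.3 with one of 64, and passed without NAA+DEX replicate 2 (adjusted p = 0.044).

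**Figure D2:**
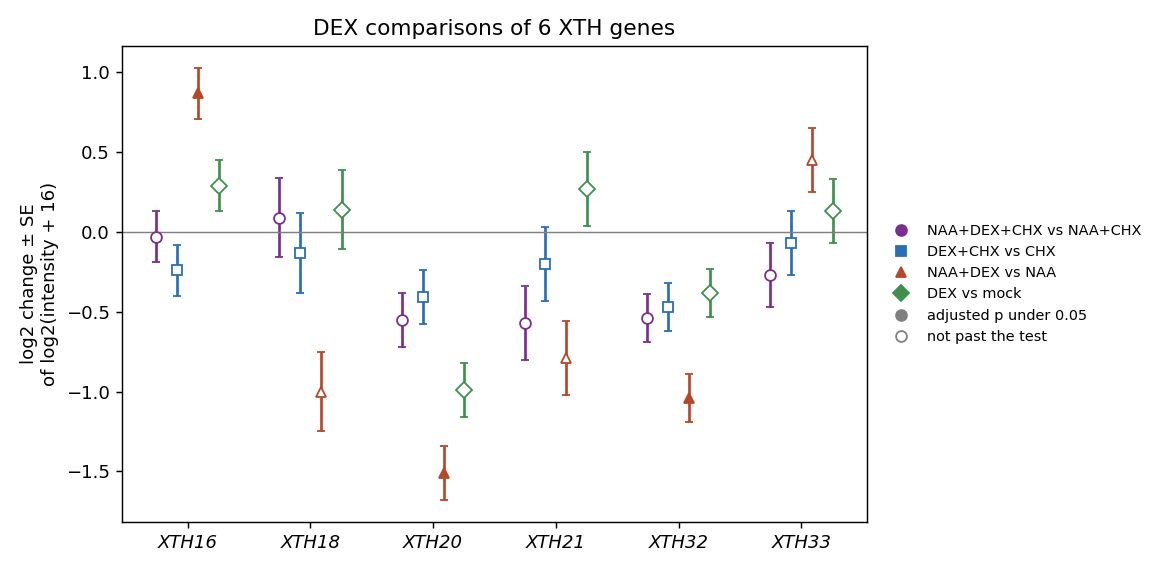
log2 change with its SE of 6 XTH genes in the 4 DEX comparisons, filled where the adjusted p was under 0.05. XTH20 and XTH32 lie below 0 in all 4, from -0.41 to -1.51 and from -0.38 to -1.04, and the filled points are the 3 calls with NAA and no CHX.

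In the other states none of the 6 genes passed. DEX vs mock called 0.0528% of all probe sets, DEX+CHX vs CHX 0.0528% and NAA+DEX+CHX vs NAA+CHX 0.11%. These are 12, 12 and 25 probe sets, against 1675, 1123 and 1304 at an unadjusted p under 0.05. Where nothing changes, a share of about 0.05 of tests still falls under that p. Unadjusted numbers here and below thus do not count responding genes. The 12 of DEX vs mock became 256 without mock replicate 2 and 0 without DEX replicate 2. XTH20 averaged 309 ± 24.1 in DEX roots and 630.0 ± 102 in mock roots, a change of -0.99 (SE 0.17, 95% interval -1.36 to -0.61, limma adjusted p = 0.11). It passed with a pseudocount of 64 (adjusted p = 0.043), without dim probe sets (0.028), with limma's trended, robust variances (0.015) and without mock replicate 2 (0.03). With CHX, XTH20 gave -0.41 (SE 0.17, 95% interval -0.79 to -0.03) without NAA and -0.55 (SE 0.17, 95% interval -0.93 to -0.17) with it. XTH32 gave -0.38, -0.47 and -0.54 (SE 0.15 each) in DEX vs mock, DEX+CHX vs CHX and NAA+DEX+CHX vs NAA+CHX.

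Both arrays with DEX lay below both control arrays in each of the 4 states for XTH20 and for XTH32, and for none of the other 4 genes. All 4 states were lower in this way for 0.334% of all probe sets, and higher for 0.325%. Both XTH16 arrays were higher in NAA+DEX roots than in NAA roots. In DEX+CHX roots both of its arrays were lower than in CHX roots (-0.24, SE 0.16, adjusted p = 1), and in the other 2 states its arrays overlapped. XTH33 was higher in both arrays in NAA+DEX roots than in NAA roots, and lower in both in NAA+DEX+CHX roots than in NAA+CHX roots (0.45 and -0.27, SE 0.2 each). The test of that difference did not pass (-0.72, SE 0.29, adjusted p = 0.43). How many of all probe sets separate in a single state was not counted.

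As means over the auxin states, a contrast added after the data were seen, DEX with CHX gave -0.48 for XTH20 (SE 0.12, adjusted p = 0.35), -0.51 for XTH32 (SE 0.11, adjusted p = 0.21) and -0.14 for XTH16 (SE 0.11, adjusted p = 1). None of the 6 passed, where 0.145% of all probe sets did, 33 in number against 1335 at an unadjusted p under 0.05. The same mean without CHX was called for XTH16, XTH20 and XTH32 (0.58, -1.25 and -0.71), where 1.61% of all probe sets were called, 0.624% as rises and 0.985% as falls. The call of XTH16 ended on leaving out replicate 1 of mock or NAA, replicate 2 of DEX, or either array of NAA+DEX.

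Whether the DEX effect differed with NAA or with CHX was tested by interactions, and none of the 6 genes passed either. The DEX by NAA interaction without CHX called 0.822% of all probe sets (187, and 2526 at an unadjusted p under 0.05). It was -1.13 for XTH18 (SE 0.35, adjusted p = 0.24), -1.05 for XTH21 (SE 0.32), -0.66 for XTH32 (SE 0.21), 0.58 for XTH16 (SE 0.22) and -0.52 for XTH20 (SE 0.24). With 1 array left out, XTH18 lay between -1.57 and -0.7, the former without mock replicate 2. The DEX by CHX interaction with NAA called 0.668% of all probe sets (152, and 2177 unadjusted). XTH20 gave 0.95 there (SE 0.24, adjusted p = 0.14) and XTH16 -0.9 (SE 0.22, adjusted p = 0.12). Both passed with trended, robust variances.

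NAA was compared with its control in 4 states, which asks for the auxin response. In mock roots NAA lowered XTH16, XTH21, XTH32 and XTH33 and raised XTH18, with XTH20 not called. That is 4 falls and 1 rise of 6 genes in NAA vs mock, where 6.07% of all probe sets fell and 7.3% rose (13.4% called). With DEX, 5 of 6 fell (NAA+DEX vs DEX), where 9.82% of all probe sets fell and 23.9% were called. Of the 4 other XTH genes with a listed probe set, NAA vs mock called 0 and NAA+DEX vs DEX called 1, as a fall. The median change of the 6 genes was -1.63 and -1.8 in these comparisons, and that of all probe sets 0.05 and 0.08.

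XTH21 averaged 23.4 ± 1.23 in NAA roots and 457 ± 77.6 in mock roots (SD, n = 2 each), a change of -3.58 (11.9-fold, SE 0.23, limma adjusted p = 2.1e-06). With DEX it averaged 7.41 ± 7.28 in NAA+DEX roots and 551 ± 64.3 in DEX roots, a change of -4.63 (SE 0.23). The size rests on the pseudocount at such levels: it was -4.22 and -6.37 with a pseudocount of 1, and -2.57 and -3.11 with one of 64, and the call was kept in each. XTH16 averaged 38.1 ± 5.51 in NAA roots and 449 ± 95.9 in mock roots, a change of -3.09 (8.52-fold, SE 0.16, limma adjusted p = 3.9e-07). NAA+DEX vs DEX changed it by -2.51 (5.7-fold, SE 0.16). These were the 2 deepest falls with NAA among the 6 genes.

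XTH33 averaged 42.5 ± 1.07 in NAA roots and 174 ± 13.4 in mock roots and fell 3.24-fold (-1.7, SE 0.2, limma adjusted p = 0.00026), and by 1.37 on the log2 scale with DEX. Its change in NAA vs mock was -2 with a pseudocount of 1 and -1.16 with one of 64, and the call was kept in both. XTH32 fell 2.98-fold in NAA vs mock (-1.57, SE 0.15, limma adjusted p = 5.1e-05) and 4.7-fold in NAA+DEX vs DEX (-2.23, SE 0.15, limma adjusted p = 2.5e-06). XTH18 averaged 2181 ± 102 in NAA roots and 1217 ± 512 in mock roots, a rise of 0.9 (SE 0.25, limma adjusted p = 0.038). That call was lost in 9 of 16 settings with an array left out, among them without mock replicate 1 (0.46, adjusted p = 0.2), and with median centring (0.8, adjusted p = 0.094). In NAA+DEX vs DEX it gave -0.24 (SE 0.25) and overlapped.

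XTH20 averaged 629 ± 62.5 in NAA roots and 630.0 ± 102 in mock roots, which overlapped, with a change of 0 (SE 0.17, 95% interval -0.37 to 0.38). In NAA+DEX vs DEX it fell by 0.52 on the log2 scale (SE 0.17, limma adjusted p = 0.049). The last call was lost with a replicate block (adjusted p = 0.064) and in 11 of 16 settings with an array left out, the change lying at -0.33 without NAA+DEX replicate 1.

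**Figure D3:**
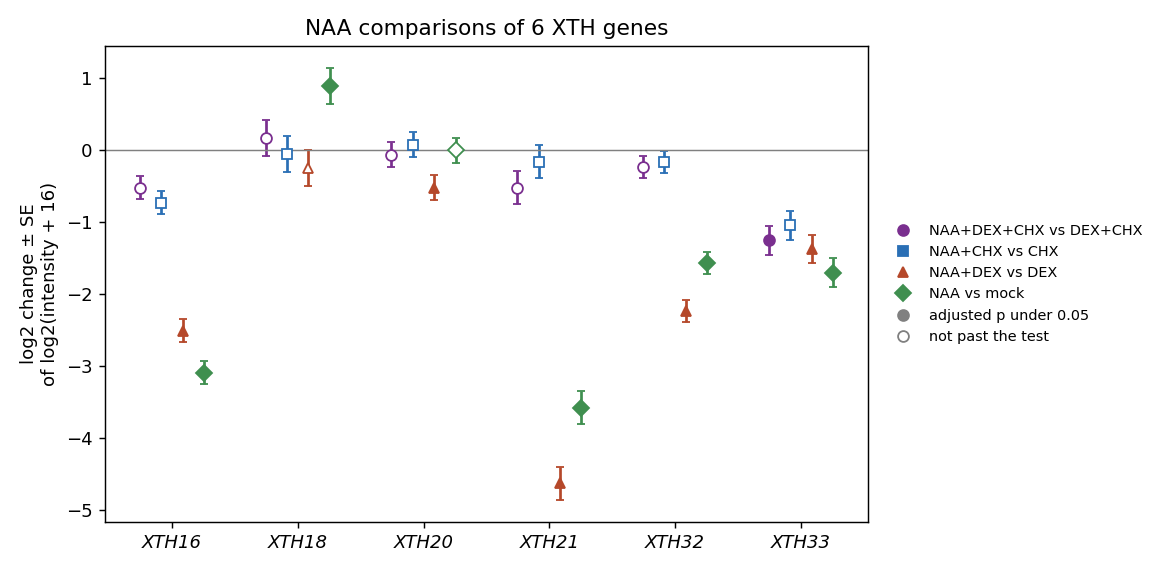
log2 change with its SE of 6 XTH genes in the 4 NAA comparisons, filled where the adjusted p was under 0.05. XTH16, XTH21 and XTH32 lie far below 0 without CHX and between -0.73 and -0.16 with it, whereas XTH33 lies between -1.04 and -1.7 in all 4.

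With CHX, NAA+CHX vs CHX called none of the 6 genes and 0.167% of all probe sets (38, and 2739 at an unadjusted p under 0.05), and NAA+DEX+CHX vs DEX+CHX called XTH33 alone, as a fall, where 1.18% of all probe sets were called (268) and 0.536% fell. XTH33 averaged 185 ± 30.8 in NAA+DEX+CHX roots and 464 ± 107 in DEX+CHX roots, a change of -1.25 (2.37-fold, SE 0.2, limma adjusted p = 0.023). Leaving out any 1 of those 4 arrays ended this call, and the 268 probe sets called then numbered 18 to 41. The 38 of NAA+CHX vs CHX became 3 without CHX replicate 2, 4 without NAA+CHX replicate 2, and 18 and 25 without the other arrays compared, and were 262 with a pseudocount of 64 and 301 with trended, robust variances. NAA+CHX vs CHX gave -1.04 for XTH33 (224 ± 1.71 against 479.6 ± 1.21, SE 0.2, adjusted p = 0.074) and -0.73 for XTH16 (SE 0.16, adjusted p = 0.094). Both passed with a pseudocount of 64, without dim probe sets, and with trended, robust variances.

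The mean NAA effect with CHX, added after the data were seen, was -1.15 for XTH33 (SE 0.14, adjusted p = 0.0029) and -0.62 for XTH16 (SE 0.11, adjusted p = 0.012). In the same contrast the root markers EXPA7 and EXPA18 gave -0.64 (adjusted p = 0.01) and -0.49 (adjusted p = 0.042). The 3 root markers summed to 14500 to 17600 in NAA+CHX roots and 19900 to 20700 in CHX roots, and to 16900 to 19100 in NAA+DEX+CHX roots and 17100 to 20700 in DEX+CHX roots, and their part in the result was not tested. XTH33 and XTH16 both fell, and 1.77% of all probe sets fell in that contrast (3.62% called in either direction). XTH16 lost its call without CHX replicate 2 or DEX+CHX replicate 2. XTH21, XTH32, XTH18 and XTH20 gave -0.34, -0.2, 0.06 and 0.01 and did not pass. Every array with NAA lay below its controls in all 4 states for XTH16, XTH32 and XTH33, as for 3.63% of all probe sets, and above them for 3.4%.

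The NAA by CHX interaction tested whether the NAA effect differed with CHX, as a mean over the DEX states, and called 14.6% of all probe sets. XTH21 had 3.76 (SE 0.23, limma adjusted p = 1.5e-06), XTH16 2.18 (SE 0.16, limma adjusted p = 6.6e-06) and XTH32 1.71 (SE 0.15, limma adjusted p = 2.8e-05). For these genes a positive value means that the fall with NAA was smaller with CHX. Of all probe sets 6.49% were called with a positive value, which for other genes can also be a larger rise with CHX. XTH33 did not pass (0.39, SE 0.2, 95% interval -0.06 to 0.83), nor did XTH18 (-0.27, SE 0.25) or XTH20 (0.27, SE 0.17). The value of XTH33 was 0.58 with a pseudocount of 1 and 0.08 with one of 64.

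CHX was compared with its control in 4 states. XTH16, XTH18 and XTH33 rose and XTH32 fell with CHX in each state, and XTH21 fell in the states without NAA and rose in those with it. CHX vs mock was called for 5 of 6 genes (3 rose and 2 fell), DEX+CHX vs DEX for 6, NAA+CHX vs NAA for 5 and NAA+DEX+CHX vs NAA+DEX for 6. Of all probe sets 50.1%, 50.9%, 50.6% and 52% were called in these 4 comparisons. Rises made up 23%, 24.2%, 22% and 22.3% of all probe sets, and falls 27%, 26.6%, 28.6% and 29.8%, so a call there does not set a gene apart.

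XTH18 averaged 19975 ± 1050 in CHX roots and 1217 ± 512 in mock roots (SD, n = 2 each), and rose 17-fold (4.08, SE 0.25, limma adjusted p = 1.2e-07). Its rise was 3.81 with DEX, 3.14 with NAA and 4.22 with both. XTH32 averaged 104 ± 0.294 in CHX roots and 1321 ± 82.2 in mock roots, a change of -3.47 (11.1-fold, SE 0.15, limma adjusted p = 7e-09). It changed by -3.56 with DEX, by -2.05 with NAA and by -1.56 with both. XTH16 rose by 1.81 in CHX vs mock (3.52-fold, SE 0.16), by 1.28 with DEX, by 4.18 with NAA and by 3.27 with both. In XTH33 the rises were 1.39, 1.19, 2.04 and 1.32 (SE 0.2 each) in the same order.

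XTH21 averaged 120.4 ± 14.0 in CHX roots and 457 ± 77.6 in mock roots, a change of -1.79 (3.46-fold, SE 0.23, limma adjusted p = 4.3e-05). With NAA the direction was the opposite: it averaged 106 ± 13.7 in NAA+CHX roots and 23.4 ± 1.23 in NAA roots, a rise of 1.63 (3.1-fold, SE 0.23, limma adjusted p = 8.3e-05). DEX+CHX vs DEX changed it by -2.26 and NAA+DEX+CHX vs NAA+DEX by 1.85. XTH20 gave -0.07 in CHX vs mock and 0.01 in NAA+CHX vs NAA, and its groups overlapped in both. Where DEX was present it rose, by 0.51 in DEX+CHX vs DEX (SE 0.17, limma adjusted p = 0.028) and by 0.97 in NAA+DEX+CHX vs NAA+DEX (SE 0.17, limma adjusted p = 0.00054). With NAA, the difference in CHX effect between roots with and without DEX is the DEX by CHX interaction above. It did not pass for XTH20 in the main fit (0.95, SE 0.24, limma adjusted p = 0.14), and the difference without NAA was not tested. The call of 0.51 was lost with quantile normalization (0.39), with median centring (0.29) and without any 1 of its 4 arrays.

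**Figure D4:**
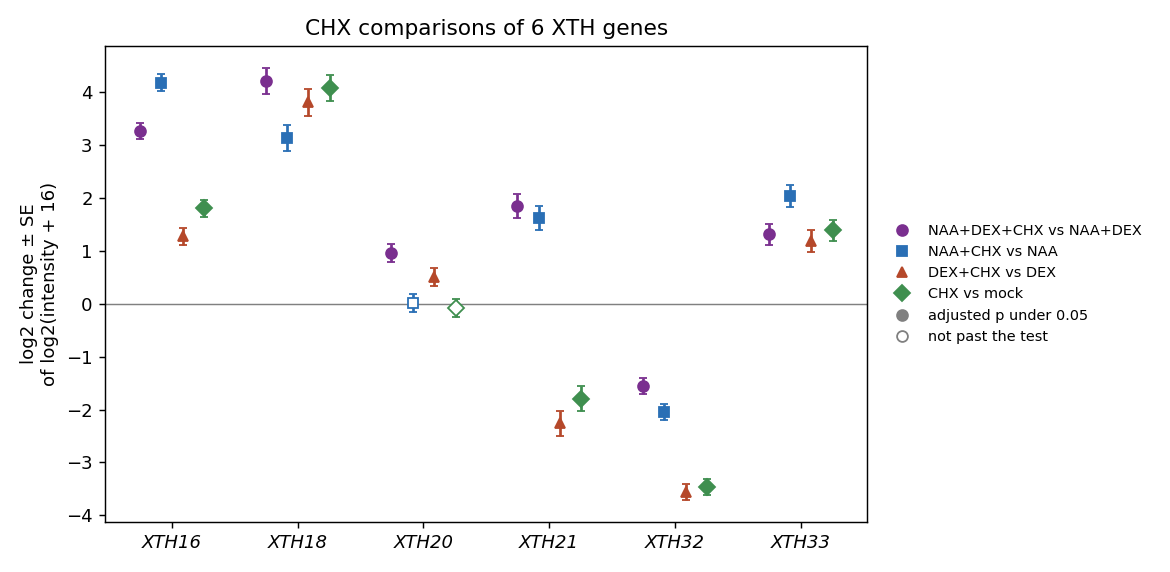
log2 change with its SE of 6 XTH genes in the 4 CHX comparisons, filled where the adjusted p was under 0.05. XTH18 lies between 3.14 and 4.22 and XTH32 between -3.56 and -1.56, and XTH21 is below 0 in the states without NAA and above 0 in those with it.

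CHX comparisons in which every array lay on 1 side of its controls in all 4 states were common, with 20.9% of all probe sets higher and 25.7% lower. XTH16, XTH18 and XTH33 were among the higher ones and XTH32 among the lower ones. The deposited scaling sets the same trimmed mean on each array. Median centring in its place moved the median change of all probe sets by -0.15 in DEX+CHX vs DEX and by -0.11 in CHX vs mock.

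Of the other XTH genes with a listed probe set, 4 in number, none passed in the 4 DEX comparisons, which called 0.0528% to 2.93% of all probe sets. XTH26 came nearest, in NAA+DEX vs NAA, with -0.81 (SE 0.2, adjusted p = 0.057). NAA+DEX vs DEX was the 1 NAA comparison with a call, XTH19 at -0.87 (SE 0.17, limma adjusted p = 0.0043), where 23.9% of all probe sets were called. CHX vs mock raised XTH19 and XTH29 (1.12 and 1.11) and lowered XTH26 and EXGT-A3 (-0.59 and -0.44). XTH19 follows XTH18 directly in the order of genes on the chromosome. It averaged 6530 ± 361 in CHX roots and 3023 ± 624 in mock roots, and in NAA+CHX vs NAA it rose by 1.9, beside 3.14 for XTH18. Signal from near-identical family members on a probe set was not measured here. The intensities of XTH29 were 3.48 to 55.1, too low to rank its groups, of which 6 of 7 neighbours overlapped.

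Among other genes of the xyloglucan pathway, 4 of 18 listed for synthesis were measured, all of them CSLC genes, which encode glucan synthases of the xyloglucan backbone. For degradation 0 of 7 were measured. No CSLC gene passed in the 4 DEX comparisons, which called 0.0528% to 2.93% of all probe sets. In the NAA comparisons only CSLC12 passed, once, at -0.52 in NAA+DEX vs DEX (adjusted p = 0.042), where 23.9% of all probe sets were called. CHX vs mock raised CSLC04 by 2.37 (SE 0.21) and lowered CSLC5 and CSLC12 (-1.4 and -0.48), and CSLC6 was not called.

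Expansins loosen walls without cutting their polymers, and 18 of 36 listed were measured. Of these, 2 rose and 3 fell in NAA+DEX vs NAA (median 0.05), beside 1 and 2 of the 6 XTH genes. Of all probe sets 1.22% rose and 1.71% fell there. EXPA15 and EXPA4 rose by 2.1 and 1.17, and EXLA3 and EXLB1 changed by -1.18 and -2.19. DEX vs mock, DEX+CHX vs CHX and NAA+DEX+CHX vs NAA+CHX called 0 of 18, where 0.0528%, 0.0528% and 0.11% of all probe sets were called. The mean DEX effect with CHX called EXPA4 and EXPA20 as rises (0.76 and 0.86, adjusted p = 0.0042 and 0.014), where 0.145% of all probe sets were called. NAA vs mock called 3 rises and 5 falls, led by EXPB1 and EXLA2 at -3.1 and -2.99 (SE 0.14 and 0.32), and CHX vs mock 6 rises and 5 falls, beside the 13.4% and 50.1% of all probe sets called in these comparisons. NAA+CHX vs CHX called 0 of 18 and 0 of the 6 XTH genes, where 0.167% of all probe sets were called, so neither count sets a family apart.

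Genes with the most similar profile were sought among 7302 genes whose group means spanned at least 1 on the log2 scale, by Pearson correlation over the 8 group means. AT5G66815, AT5G09890 and AT5G14020 were nearest to XTH16 (0.995, 0.992 and 0.99), and AT5G52710, AT1G68330 and AT2G47720 to XTH18 (0.999, 0.998 and 0.998). For XTH32 they were AT5G65380, AT1G28570 and AT2G37870 (0.997, 0.996 and 0.996). XTH21 was nearest to AT1G19900, AT2G21830 and AT2G19410 (0.992, 0.984 and 0.982). AT5G44770, AT3G03180 and AT5G03510 were nearest to XTH33 (0.984, 0.983 and 0.982). XTH20 had no gene as near: AT2G20870, AT4G36000 and AT3G47510 reached 0.928, 0.925 and 0.917. The points share the CHX and NAA effects that dominate the table, so high values are common.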

How the data were processed

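The values are linear intensities, 1 for each probe set of each array, as the authors deposited them after Affymetrix Expression Console 1.3, per the submitters' processing notes. Summary method and background correction are not given in the sources used here. The labels' protocol names a pair of labelling kits without saying which arrays had which, so a difference in kit between arrays was not tested. A 2% trimmed mean of 500 on all 16 arrays shows that the arrays share a scaling. The number of arrays limits the precision.

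After removal of 64 control probe sets, 22746 were tested. Of these, 13513 have exactly 1 listed gene, 503 several and 8730 none, and 13436 of the 13513 matched a locus in the RefSeq gene table (TAIR10.1), which was used for names and gene order only. Sequences and coordinates were not used here. limma 3.58.1 (R 4.3.3) fitted group means of log2(intensity + 16) over 16 arrays, with 8 residual degrees of freedom, moderated variances, two-sided tests and Benjamini-Hochberg adjustment, and was tested on simulated data. There were 12 comparisons, 3 interactions and 3 contrasts added after the data were seen. Replicate numbers did not pair the arrays: residuals of equal numbers correlated at -0.06 to 0.07 over 28 pairs of groups. The design text speaks of independent mRNA sets and names no separate cultures, so the p-values cover the spread among these arrays, which may be technical.

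The 6 genes were named in every comparison whatever their values, and up to 4 called genes with the smallest p from each other list. XTH26 in NAA+DEX vs NAA, CSLC6 and the levels of XTH19 and XTH29 were named after their values were seen. The genes, lists and tests were chosen with earlier results of these data known.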

Additional observations from a re-analysis of the deposited data

Results flagged for a closer look

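The NAA effect differed between roots with and without CHX for 3 of the 6 genes, by the interaction term of the limma model. The difference (with CHX minus without) was 3.76 for XTH21, 2.18 for XTH16 and 1.71 for XTH32, against 14.6% of all probe sets called for it. It kept its direction and its call in every alternative tried, between 2.6 and 4.9 for XTH21, 1.59 and 2.48 for XTH16, and 1.62 and 1.81 for XTH32. XTH21 and XTH16 lay under 50 intensity units in NAA roots, where the size depends on the pseudocount. XTH32 lay at 51.2 to 105 on the arrays with CHX, and how far that is above background is not known.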

How the results depend on the processing

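Of the 6 genes' values, 106 of 108 kept their direction and side of the threshold with a pseudocount of 1, and 103 with 64. The number was 103 with quantile normalization, 101 with median centring, 102 without dim probe sets and 102 with trended, robust variances. With only the arrays compared it was 94 of 102, and with 1 array left out 1664 of 1728. Leaving out an array of a group that a comparison does not use keeps its change as it was. Many of the 1728 could therefore move in their p only. With a pseudocount of 64, without dim probe sets and with trended variances, DEX vs mock called 1 gene in place of 0 (XTH20) and NAA+CHX vs CHX 2 in place of 0 (XTH16 and XTH33). Over all probe sets DEX vs mock called 14, 22 and 23 in these settings in place of 12. NAA+CHX vs CHX called 262, 215 and 301 of all probe sets in place of 38. Without dim probe sets NAA+DEX vs NAA called 5 in place of 3, and the DEX by CHX interaction 1 in place of 0, or 2 with trended variances. The calls over all probe sets went up as well, from 667 to 1065 in NAA+DEX vs NAA without dim probe sets. In the interaction they went from 152 to 252, or to 301 with trended variances. The call gained by XTH21 carries no weight, since it was under 100 in NAA and NAA+DEX roots and stayed in through other groups. XTH16, gained in the interaction, was under 100 in NAA and NAA+DEX roots as well and stayed in through its groups with CHX, mock and DEX. With only the arrays compared, which leaves fewer samples, NAA+DEX vs NAA and NAA+DEX+CHX vs DEX+CHX called 0 and the mean DEX effect without CHX 1 in place of 3. XTH18 also lost its call in NAA vs mock (limma adjusted p = 0.22), and XTH20 in NAA+DEX vs DEX (limma adjusted p = 0.14).

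With 1 array left out, DEX vs mock called 0 to 1 genes, NAA+DEX vs NAA 2 to 4, NAA+DEX+CHX vs DEX+CHX 0 to 1, the DEX by NAA interaction 0 to 1, the mean DEX effect without CHX 2 to 3 and the mean NAA effect with CHX 1 to 2. The calls of XTH18 in NAA vs mock, and of XTH20 in NAA+DEX vs DEX and DEX+CHX vs DEX, also depended on single arrays, as given above. With the replicate block, 106 of 108 values kept their call. XTH18 passed in NAA+DEX vs NAA (adjusted p = 0.025) and XTH20 no longer did in NAA+DEX vs DEX (adjusted p = 0.064).

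Values that changed sign were uncalled and near 0, and the cause was not tested. With quantile normalization XTH18 gave -0.04 in NAA+DEX+CHX vs NAA+CHX and -0.05 in the mean NAA effect with CHX, and XTH20 -0.06 in NAA vs mock. With median centring XTH16 gave 0.01 in NAA+DEX+CHX vs NAA+CHX, XTH18 0.01 in the mean DEX effect with CHX, and XTH20 -0.09, -0.08 and -0.01 in NAA vs mock, NAA+CHX vs NAA and the mean NAA effect with CHX. XTH21 gave -0.09 in the DEX by CHX interaction with a pseudocount of 64. Leaving out 1 array moved XTH18 between -0.3 and 0.57 and XTH33 between -0.15 and 0.41 in DEX vs mock. In DEX+CHX vs CHX, XTH21 lay between -0.42 and 0.01 and XTH33 between -0.3 and 0.16. In NAA+DEX+CHX vs NAA+CHX, XTH16 lay between -0.06 and 0 and XTH18 between -0.06 and 0.23. XTH18 lay between -0.1 and 0 in NAA+CHX vs CHX, between -0.1 and 0.05 in the mean DEX effect with CHX and between -0.01 and 0.14 in the mean NAA effect with CHX. XTH20 lay between -0.16 and 0.17 in NAA vs mock, -0.21 and 0.09 in NAA+DEX+CHX vs DEX+CHX, -0.23 and 0.09 in CHX vs mock, -0.09 and 0.11 in NAA+CHX vs NAA, and -0.06 and 0.09 in the mean NAA effect with CHX. XTH21 lay between -0.11 and 0.54 in the DEX by CHX interaction. Removing dim probe sets moved the median change of all probe sets by -0.15 in NAA+CHX vs NAA and -0.11 in NAA+DEX+CHX vs NAA+DEX. Signal over background is unknown, which limits XTH21 in the groups with NAA and no CHX. The same holds for the low values of XTH16 and XTH33 in those groups, and of XTH32 in the groups with CHX.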
